A study of Mus musculus with 17 samples.

Results

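Nicotinic acetylcholine receptors of the brain are assembled from a family of neuronal subunits, and the 9 genes that encode them in the mouse (Chrna2 to Chrna7 and Chrnb2 to Chrnb4) were followed here across brain libraries. The 9 genes were taken by name from 41015 annotated genes, by a rule that used no measured level but was written with earlier results of these data known. The libraries came from mice that overexpress HAR1A, a human long noncoding RNA gene whose sequence changed rapidly in the human lineage (6 libraries, called transgene), and from normal mice without the transgene (11 libraries, called control). Both groups have the strain background C57BL/6. The promoter and founder line of the transgene, the brain region, age and sex, and whether each library is a separate animal are not stated in the labels. The p-values therefore describe library-to-library spread, which may be technical. Libraries are numbered within each group in order of deposition, a number that only names them.

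A nicotinic receptor is a ring of subunits around a cation channel that opens when acetylcholine binds. Subunits alpha4 and beta2 form the most common brain receptor and alpha7 forms receptors of its own kind. Subunits alpha3 and beta4 are concentrated in the medial habenula and autonomic ganglia, and alpha6 and beta3 in dopamine neurons. The alpha5 and beta3 subunits are accessory: they join receptors made by other subunits and alter their calcium entry, sensitivity and traffic.

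Each library held 17067407 to 22642441 reads assigned to single transcripts. All 6 transgene libraries were sequenced on lane 4 of 1 flow cell together with control 7, control 8 and control 11. Of the other controls, 6 were on lane 8, 1 on lane 2 and 1 on lane 6 of another flow cell. The libraries also differed in markers of brain region. The summed level of 16 Hox genes, markers of the hindbrain and spinal cord, was 0.0925 to 0.633 CPM (counts scaled to the library total, with TMM factors) with the transgene and 16.6 to 369.7 CPM in control libraries. The summed level of 12 telencephalic transcription factor genes was 516.9 to 747.1 CPM with the transgene and 14.2 to 251.9 CPM in control libraries. The part of these regional differences in the subunit results was not tested. RNA of neurons was present in both groups. The synaptic gene Snap25 stood at 2911 ± 645.6 CPM (SD, n = 6) with the transgene and at 2972 ± 429.5 CPM (n = 11) in the controls. This gene does not mark a region. Of the 6 general neuron and glia markers listed, Snap25 among them, 2 were higher and 2 lower with the transgene.

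Of the 9 subunit genes, 3 were higher (Chrna5, Chrna7 and Chrnb3) and 1 was lower (Chrnb2) in the transgene libraries. The other 5 (Chrna2, Chrna3, Chrna4, Chrna6 and Chrnb4) did not pass an adjusted p of 0.05 in edgeR's quasi-likelihood test. Over all 19136 genes tested, 23% were higher and 24.4% lower by the same test, so 3 of 9 and 1 of 9 are not far from the background. Groups without any overlap between libraries were found for 1 of the 9 (Chrna5), against 14.9% of all tested genes. The median log2 fold change of the 9 was 0.44, against -0.05 over all tested genes. All 9 genes passed the filter on low counts, Chrna5 and Chrnb3 mainly through the transgene libraries, where they were higher. In the comparison of lane 8 with lane 4 among controls, neither of them passed it.

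**Figure D1:**
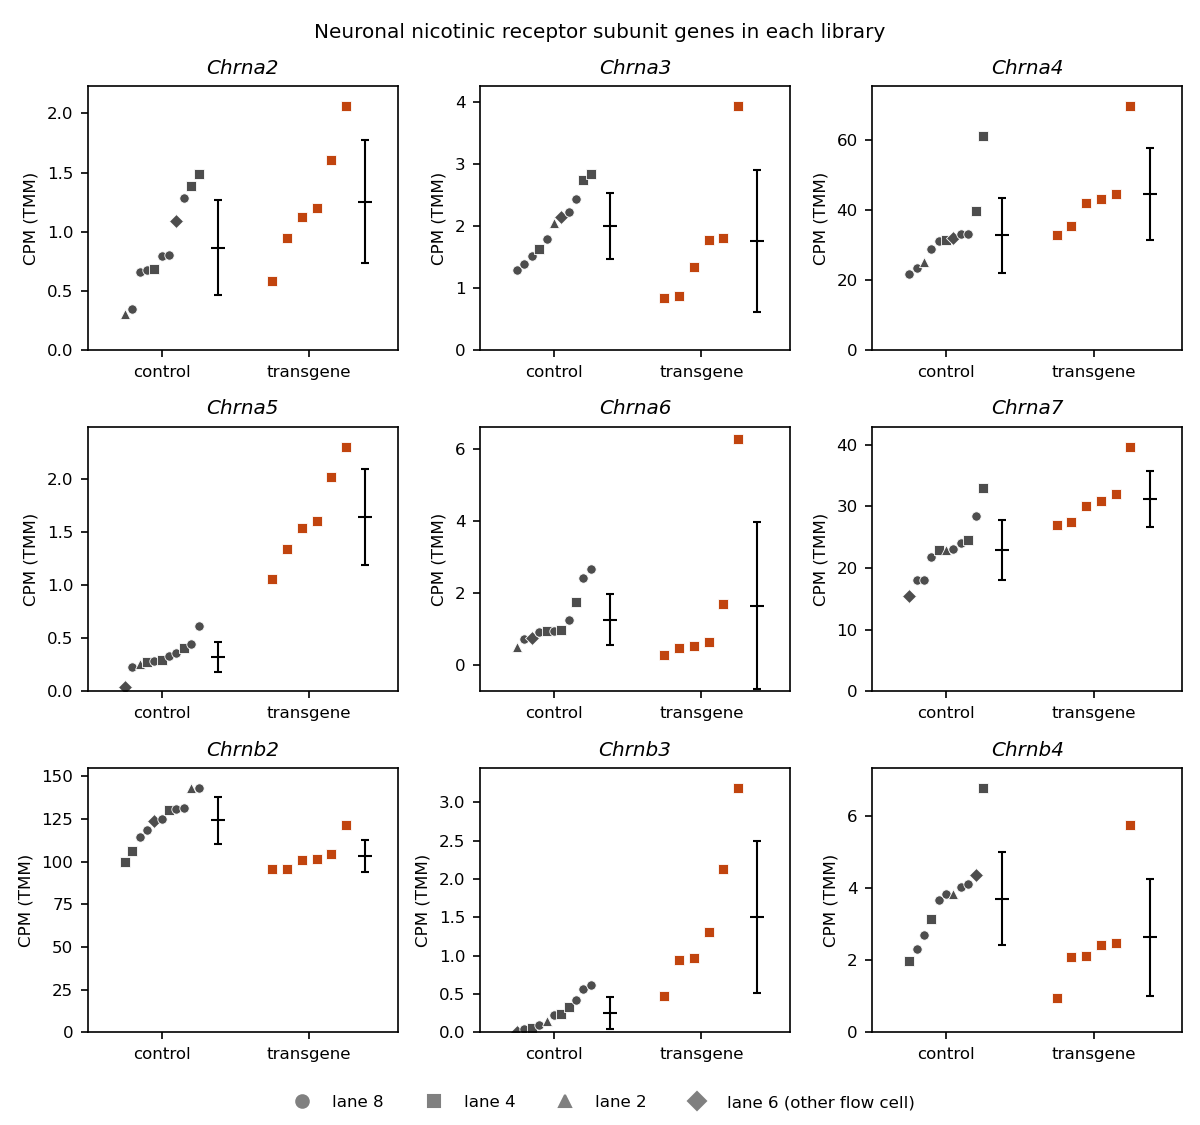
CPM (TMM-scaled, linear axes) of each subunit gene in each library, sorted within the group, with control libraries in grey and transgene libraries in orange; symbols mark the sequencing lane, and the bars beside the points are the mean ± SD (n = 11 and n = 6). The 6 transgene libraries lie above all 11 controls for Chrna5, and single transgene libraries stand high for Chrna3, Chrna4, Chrna6 and Chrnb4.

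The 9 genes differed greatly in level. Per kilobase of exonic sequence, 3 genes carried most of the signal in the controls: Chrnb2 with 14.9, Chrna7 with 11.04 and Chrna4 with 6.90 CPM per kilobase. The next in order was Chrnb4 with 0.998 CPM per kilobase, and its range did not overlap that of Chrna4. Chrna6 (0.433), Chrna3 (0.381), Chrna2 (0.229), Chrna5 (0.108) and Chrnb3 (0.0394 CPM per kilobase) followed. The ranges of all other neighbours in this order overlapped. In the transgene libraries the first 3 places were held by Chrna7 (15), Chrnb2 (12.4) and Chrna4 (9.37 CPM per kilobase), again clear of Chrnb4 (0.709). Chrna5 stood sixth there with 0.549 CPM per kilobase and Chrnb3 last with 0.236. These levels are under-estimates for the 6 genes with several transcript rows, because reads shared between transcripts were not counted. The order also depends on the length used. Per kilobase of bases in 1 transcript row only, Chrna4 stood above Chrna7 in the controls (11.41 against 11.04 CPM per kilobase). In the transgene libraries Chrnb2 (18.98) and Chrna4 (15.5) then stood above Chrna7. Chrna5 (1.412) stood above Chrnb4 (0.709) and Chrna6 (0.567 CPM per kilobase) there. The ranges overlapped in each of these pairs.

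Chrna5, the gene of the alpha5 accessory subunit, had the change with the smallest adjusted p of the 9. It had a lowest value of 1.05, a median of 1.57 and a highest value of 2.30 CPM in the 6 transgene libraries. In the 11 controls the lowest value was 0.0437, the median 0.294 and the highest 0.616 CPM. Every transgene library was above every control. The level was 1.64 ± 0.45 CPM (SD, n = 6) against 0.324 ± 0.14 CPM (n = 11), a log2 fold change of 2.32 ± 0.28 (SE), or 5.01-fold, with an edgeR adjusted p of 2.45e-06. The gene was called higher in every alternative tried, with log2 fold changes of 2.19 to 2.46 and adjusted p-values from 3.99e-14 to 0.000348. The gene is rare in these libraries: it had 20 to 43 counts in a transgene library and 1 to 13 in a control.

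Chrna5 lies on chromosome 9 (mm10, 54980880 to 55007779, plus strand) and has 2 start sites in RefSeq. The deposited transcript rows differ in their starts but also in other parts, so their counts do not by themselves show which start was used. The 2 rows that start at the downstream site (54981466 and 54981533) held all but 2 of the counts of the gene. The row that starts at 54981466 held 63 counts over the 11 controls and 152 over the 6 transgene libraries, and the row that starts at 54981533 held 9 and 39. The row of the upstream site, Chrna5-201, had 0 and 2 counts, although reads that it shares with the other rows were left out of all rows. The row that starts at 54981466 has 928 bases in no other row, Chrna5-201 has 236 and the row that starts at 54981533 has 0. The row that starts at 54981466 also ends at 55007779, beyond the end of Chrna5-201 at 55006918. Its counts may lie at its end, and the use of either start was not tested. The sequence before each start is shown because the counts fall on rows of the downstream start, and that before the start of Chrna3 because this gene sits next to Chrna5 and was not called. Each is the 250 bases before the start (RefSeq, build GRCm38.p6), 5′ to 3′ on the gene's own strand, at chr9:54980630-54980879 (plus) for the upstream Chrna5 start, chr9:54981238-54981487 (plus) for the downstream one and chr9:55026563-55026812 (minus) for Chrna3. Capitals mark GGGCGG on either strand, the core of the GC box.
Chrna5 upstream: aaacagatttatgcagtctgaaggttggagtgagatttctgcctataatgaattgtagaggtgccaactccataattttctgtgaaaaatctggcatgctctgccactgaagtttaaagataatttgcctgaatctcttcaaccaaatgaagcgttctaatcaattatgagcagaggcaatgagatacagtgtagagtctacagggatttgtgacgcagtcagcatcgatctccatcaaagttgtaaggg
Chrna5 downstream: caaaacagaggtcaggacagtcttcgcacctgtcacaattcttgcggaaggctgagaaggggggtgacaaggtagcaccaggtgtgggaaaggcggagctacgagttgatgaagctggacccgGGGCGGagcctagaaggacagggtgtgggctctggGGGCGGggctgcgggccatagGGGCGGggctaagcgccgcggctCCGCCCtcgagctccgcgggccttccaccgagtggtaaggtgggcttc
Chrna3: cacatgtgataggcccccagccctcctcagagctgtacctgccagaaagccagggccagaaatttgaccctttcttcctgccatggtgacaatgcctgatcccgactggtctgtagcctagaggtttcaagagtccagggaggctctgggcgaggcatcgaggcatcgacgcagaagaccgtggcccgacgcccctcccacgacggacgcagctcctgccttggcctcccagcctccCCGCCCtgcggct
The downstream window of Chrna5 held 4 GGGCGG matches, 65.2% G and C and 17 CG pairs. The upstream window held 0 matches, 40% G and C and 3 CG pairs. The window of Chrna3 had 1 match, 63.2% G and C and 13 CG pairs. Over 32851 promoter windows of the same length, 32.7% held GGGCGG on either strand, the median G and C content was 52.4% and the median number of CG pairs was 6. Promoter windows were found for 6 of the 9 genes; Chrna2, Chrna6 and Chrnb3 had no entry in the table. A match describes letters in the window and is no evidence of binding.

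Chrnb3, the gene of the beta3 accessory subunit (chromosome 8, 27368711 to 27399730, plus strand), was also higher. Its lowest, median and highest values were 0.474, 1.14 and 3.19 CPM in the transgene libraries, and 0, 0.232 and 0.616 CPM in the controls. The groups overlapped only through transgene 3 (0.474 CPM), which was below control 2 (0.570 CPM) and control 10 (0.616 CPM). The mean was 1.503 ± 0.99 CPM (SD, n = 6) against 0.251 ± 0.21 CPM (n = 11), a log2 fold change of 2.56 ± 0.49 (SE), or 5.91-fold, with an edgeR adjusted p of 0.000308. Control 6 had no count, which allows up to 0.131 CPM (3 counts; counting error only). Counts over the group were 181 for 6 transgene and 56 for 11 control libraries, nearly all in the row Chrnb3-201 (176 and 54).

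The highest Chrnb3 values, 3.19 CPM in transgene 5 and 2.12 CPM in transgene 1, came from the libraries with the most RNA of Gpr151, a receptor gene of the habenula. Gpr151 stood at 8.07 CPM in transgene 5 and at 4.57 CPM in transgene 1, against 0.925 to 1.79 CPM in the other 4 transgene libraries and 0.149 to 0.900 CPM in the controls. Other genes of the habenula list did not order the libraries in this way: Tac2 was highest in transgene 4 (2.78 CPM), Nwd2 in transgene 6 (72.5 CPM), and Gng8 (3.25 CPM) and Pou4f1 (40.4 CPM) in control 7. With transgene 1 and transgene 5 left out, an alternative chosen after seeing the data, Chrnb3 was still higher (log2 fold change 1.90, edgeR adjusted p = 0.00925). Chrna5 then had a log2 fold change of 2.30 (edgeR adjusted p = 3.97e-05). The other 4 transgene libraries still had more Gpr151 than any control, so this alternative does not remove the difference in that marker. Its part in the Chrnb3 result was not tested. In these bulk libraries, a change in the number of cells of a type and a change in RNA per cell cannot be told apart.

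**Figure D2:**
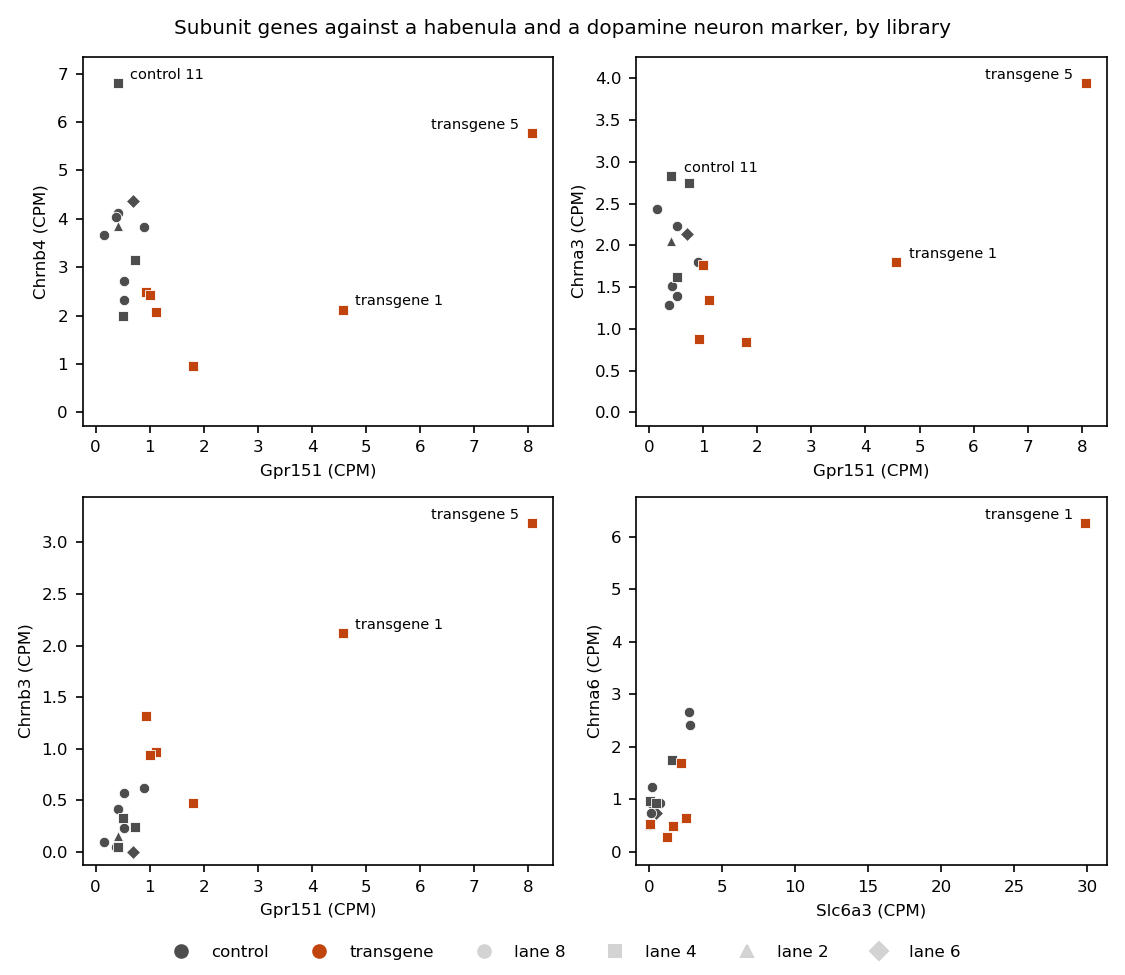
CPM of 3 subunit genes against Gpr151 and of Chrna6 against Slc6a3 (TMM-scaled CPM on linear axes), 1 point for each library, with colour for the group and shape for the lane. Transgene 5 combines the highest Gpr151 (8.07 CPM) with the highest Chrna3 and Chrnb3, and transgene 1 the highest Slc6a3 (29.9 CPM) with the highest Chrna6; control 11 had the highest Chrnb4 at 0.412 CPM of Gpr151.

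Among the genes of the major brain receptors, Chrna7 was higher and Chrnb2 lower over all libraries. Neither was called within lane 4 or when lane and flow cell entered the fit, as given with those comparisons. These are not separate checks: all transgene libraries are on lane 4, so both fits set them against the same lane 4 controls. Chrna7 (chromosome 7, 63098692 to 63212569, minus strand), the gene of the alpha7 subunit, had a lowest value of 27.0, a median of 30.5 and a highest value of 39.7 CPM in transgene libraries. The controls had 15.4, 23.0 and 33.0 CPM. The groups overlapped through control 2 (28.4 CPM) and control 7 (33.0 CPM). The log2 fold change was 0.44 ± 0.13 (SE), or 1.36-fold, with an edgeR adjusted p of 0.00961 (31.2 ± 4.6 CPM, SD, n = 6, against 22.9 ± 4.9 CPM, n = 11).

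Chrnb2 (chromosome 3, 89746195 to 89764632, minus strand), the gene of the beta2 subunit, was the most abundant of the 9 in CPM. It had 95.5, 101.3 and 121.2 CPM as the lowest, median and highest transgene values and 99.9, 124.8 and 143.3 CPM in the controls. The groups overlapped, with transgene 1 at the top of its group and control 11 at the bottom of the controls. Chrnb2 fell by 0.27 ± 0.08 (SE) on the log2 scale, or 1.202-fold (edgeR adjusted p = 0.00935). A stretch of 1365 of its 8344 exonic bases is shared with Adar, an RNA-editing gene on the opposite strand. Reads shared between transcripts were not counted. Without a stated strand setting, it is not known whether the reads of that stretch were left out in this way. Adar itself had a log2 fold change of 0.32 ± 0.15 (edgeR adjusted p = 0.0925).

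Chrna4 (chromosome 2, 181018380 to 181043546, minus strand), the gene of the alpha4 subunit that pairs with beta2, did not pass the test. Its lowest, median and highest values were 32.8, 42.5 and 69.7 CPM with the transgene and 21.8, 31.5 and 61.0 CPM in control libraries. Transgene 1 (69.7 CPM) and control 7 (61.0 CPM) stood highest in their groups. The log2 fold change was 0.44 ± 0.19 (SE, edgeR adjusted p = 0.0615). Without control 7 it was 0.59 (edgeR adjusted p = 0.00251), and it was also called without transgene 4 (0.52, edgeR adjusted p = 0.0397) or transgene 6 (0.53, edgeR adjusted p = 0.0374). Control 7 also had the lowest summed level of cerebellar granule cell genes among the controls, 133.4 CPM against 979.4 to 2918 CPM in the other controls.

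As shares of the summed CPM of the 9 genes, Chrnb2 made up 66.1% ± 6.9 (SD, n = 11) in control and 54.8% ± 2.6 (n = 6) in transgene libraries. Chrna4 made up 17.3% ± 4.9 and 23.2% ± 3.6, and Chrna7 12.1% ± 2.2 and 16.6% ± 2.6. Chrna5 made up 0.172% ± 0.075 in control and 0.880% ± 0.27 in transgene libraries, and Chrnb3 0.130% ± 0.11 and 0.784% ± 0.50. The summed level of the 9 genes itself was 162.5 to 236.1 CPM with the transgene and 164.0 to 206.7 CPM in control libraries, with overlapping ranges. The shares are a description and were not tested.

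The remaining 4 genes, which are enriched in small neuron groups, did not pass the test over all libraries. Single libraries set much of the spread of Chrna3, Chrnb4 and Chrna6. Chrna3 (chromosome 9, 55010111 to 55026562, minus strand), the gene of the alpha3 subunit, had 0.843, 1.56 and 3.94 CPM as the lowest, median and highest transgene values and 1.29, 2.05 and 2.83 CPM in controls (log2 fold change -0.18 ± 0.28, edgeR adjusted p = 0.622). Chrnb4 (chromosome 9, 55028154 to 55048779, minus strand), the gene of its partner beta4, had 0.949, 2.27 and 5.77 CPM with the transgene and 1.996, 3.84 and 6.80 CPM in control libraries (-0.49 ± 0.29, edgeR adjusted p = 0.185). Transgene 5 was highest in its group for both genes, with 3.94 CPM of Chrna3 and 5.77 CPM of Chrnb4. That library also had 12.7 CPM of Pou4f1, a transcription factor gene of the habenula, against 0.139 to 5.52 CPM in the other transgene libraries and 1.69 to 40.4 CPM in the controls. Control 7, with the most Pou4f1, had the lowest Chrnb4 of the controls (1.996 CPM) and 1.62 CPM of Chrna3. Without transgene 5, both were called lower, Chrna3 at -0.60 (edgeR adjusted p = 0.0480) and Chrnb4 at -0.88 (edgeR adjusted p = 0.0110).

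Chrna6 (chromosome 8, 27403212 to 27413944, minus strand), the gene of the alpha6 subunit, had 0.278, 0.588 and 6.26 CPM with the transgene and 0.512, 0.940 and 2.65 CPM in control libraries. Its log2 fold change was 0.38 ± 0.54 (edgeR adjusted p = 0.586). The highest value belonged to transgene 1, which also had 29.9 CPM of Slc6a3, the dopamine transporter gene, while no other library exceeded 2.80 CPM of it. Th, the gene of the enzyme that starts dopamine synthesis, stood at 8.60 CPM in transgene 1, within the range of the other libraries (1.16 to 17.8 CPM). Without transgene 1 the log2 fold change of Chrna6 turned to -0.76 (edgeR adjusted p = 0.167). With transgene 1 and transgene 5 left out it was -1.34 (edgeR adjusted p = 0.0218). Chrna2 (chromosome 14, 66135039 to 66152948, plus strand), the gene of the alpha2 subunit, known from a class of interneurons and from the interpeduncular nucleus, had 0.584, 1.16 and 2.07 CPM with the transgene and 0.307, 0.794 and 1.49 CPM in control libraries (0.52 ± 0.31, edgeR adjusted p = 0.184).

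Within lane 4, where 6 transgene libraries meet 3 controls, Chrna5 and Chrnb3 stayed higher and no subunit gene was lower. Chrna5 had 0.279, 0.294 and 0.412 CPM in control 7, control 8 and control 11, below all 6 transgene libraries. Its log2 fold change there was 2.29 ± 0.35 (SE, edgeR adjusted p = 0.00102). Chrnb3 had 0.325, 0.245 and 0.0515 CPM in the same 3 controls, also without overlap, and a log2 fold change of 2.79 ± 0.70 (edgeR adjusted p = 0.0148). The 3 controls held only 20 counts of Chrna5 and 13 of Chrnb3. Without control 11 the Chrnb3 log2 fold change was 2.35 with an edgeR adjusted p of 0.0573.

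The other 7 genes were not called within lane 4. Chrna7 had a log2 fold change of 0.20 ± 0.16 (edgeR adjusted p = 0.395) and Chrnb2 of -0.13 ± 0.11 (edgeR adjusted p = 0.408), against 0.44 and -0.27 over all libraries. The difference between these fits, which share libraries, was not tested. Chrna4 was at -0.00 ± 0.25 (edgeR adjusted p = 0.995), with 61.0, 31.5 and 39.5 CPM in control 7, control 8 and control 11. Chrna2 was at 0.06, Chrna3 at -0.45, Chrna6 at 0.42 and Chrnb4 at -0.60. In this comparison 13.6% of 19261 tested genes were higher, 12% lower and 25.4% without overlap between the groups, against 2, 0 and 2 of the 9 subunit genes. The median over the 9 was 0.06, against -0.04 over all tested genes.

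**Figure D3:**
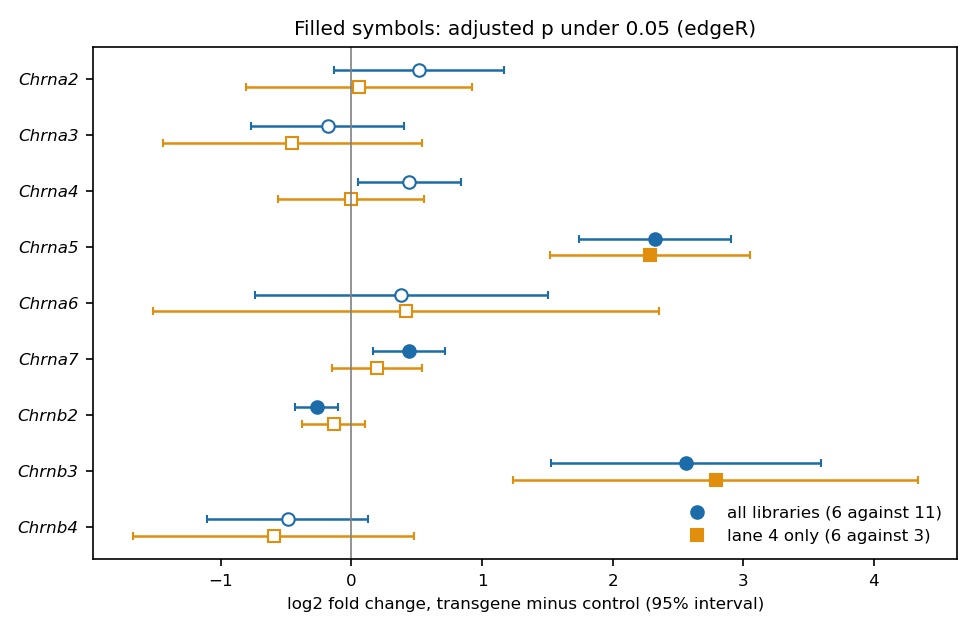
Log2 fold change of each subunit gene, transgene minus control, with its 95% interval, over all libraries (circles, 6 against 11) and within lane 4 (squares, 6 against 3); filled symbols passed an edgeR adjusted p of 0.05. Chrna5 (2.32 and 2.29) and Chrnb3 (2.56 and 2.79) are filled in both, Chrna7 and Chrnb2 over all libraries only.

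Among the controls, lane 8 (6 libraries) was compared with lane 4 (3 libraries) to see how far the genes vary without the transgene. None of the 7 subunit genes tested was called, and Chrna5 and Chrnb3 did not pass the filter on low counts. In this comparison 0% of 19384 genes were called by edgeR, while 1543 had an unadjusted p under 0.05; DESeq2 called 1 gene and limma-voom 0. The subunit gene with the smallest p was Chrna4, with 28.6 ± 4.9 CPM (SD, n = 6) on lane 8 and 44.0 ± 15.2 CPM (n = 3) on lane 4 (log2 fold change -0.61 ± 0.20, edgeR adjusted p = 0.581). Chrna7 had -0.26 ± 0.17 and Chrnb2 0.19 ± 0.11 for lane 8 minus lane 4. When the fit over all libraries took lane and flow cell into account, Chrna7 (0.22, edgeR adjusted p = 0.347) and Chrnb2 (-0.12, edgeR adjusted p = 0.409) were no longer called. Lane cannot be told apart from regional content in the lane 4 controls. Control 7 (133.4 CPM) and control 11 (979.4 CPM) had the lowest summed levels of cerebellar granule cell genes among the controls. Control 8 had 2692 CPM. Summed Hox levels were 332.4 CPM in control 7, 369.7 CPM in control 11 and 16.6 CPM in control 8, the lowest control. The part of regional content in the lane results was not tested.

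The genes Chrna5, Chrna3 and Chrnb4 form a cluster on chromosome 9, with 2331 bases between Chrna5 and Chrna3 and 1591 between Chrna3 and Chrnb4. Within it Chrna5 rose by 2.32 on the log2 scale, while Chrna3 (-0.18) and Chrnb4 (-0.49), which are read from the other strand, did not pass the test. On the far side of Chrna5, Psma4, a proteasome subunit gene, did not pass the test (0.08 ± 0.06, edgeR adjusted p = 0.314). Hykk, a hydroxylysine kinase gene, was lower (-0.38 ± 0.10, edgeR adjusted p = 0.00501), as was Ireb2, an iron regulatory protein gene (-0.16 ± 0.06, edgeR adjusted p = 0.0244). Within lane 4 neither was called (Hykk -0.38 ± 0.17, edgeR adjusted p = 0.124; Ireb2 -0.13 ± 0.09, edgeR adjusted p = 0.320). A second pair lies on chromosome 8, where Chrnb3 (2.56) and Chrna6 (0.38, not called) are 3481 bases apart.

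**Figure D4:**
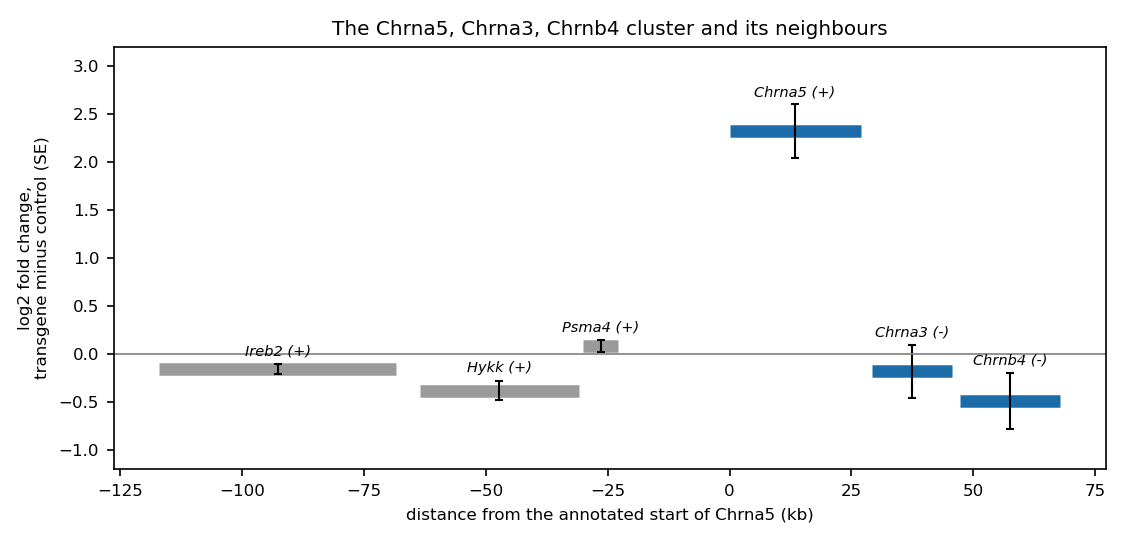
Log2 fold change over all libraries (transgene minus control, bars are SE) of the genes around Chrna5, drawn to scale by distance from the annotated start of Chrna5 in kilobases, with subunit genes in blue, other genes in grey and the strand in brackets. Chrna5 stands at 2.32, and the 5 genes around it lie between -0.49 and 0.08.

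Over all subunit loci, the chromosome 9 cluster included, 12 listed neighbours lay within 250 kilobases of a subunit gene and 10 were tested. Of the 10, 3 were higher and 2 lower, against 23% and 24.4% of all tested genes, and within lane 4, 3 of 11 were higher and 0 lower. Arfgap1, a gene of Golgi transport, was higher by 0.69 ± 0.16 (edgeR adjusted p = 0.00151), and Ephx2, an epoxide hydrolase gene 10.5 kilobases from Chrna2, by 0.96 ± 0.15 (edgeR adjusted p = 2.99e-05).

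Of 7 genes for muscle-type and hair-cell nicotinic subunits, 3 had enough counts to be tested. Chrnb1, the beta1 subunit of the muscle receptor, was lower without overlap between the groups, at 4.28 ± 0.78 CPM (SD, n = 6) with the transgene and 6.75 ± 0.94 CPM (n = 11) in control libraries (log2 fold change -0.65 ± 0.13, edgeR adjusted p = 0.00031). Chrna10, a partner of alpha9 in cochlear hair cells, was higher by 2.26 ± 0.77 (edgeR adjusted p = 0.0221). Its values overlapped, up to 5.69 CPM with the transgene and 3.76 CPM in control libraries, and within lane 4 it was not called (0.84 ± 0.90, edgeR adjusted p = 0.542). Chrna1 was at 0.12 ± 0.29 (edgeR adjusted p = 0.759). Chrnd had no count in any library.

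Of 14 genes for receptor chaperones and LY6 proteins, which help nicotinic receptors to fold or bind to and tune them, 10 were tested, 3 were higher and 1 was lower. Ly6h, which reduces alpha7 receptors at the surface, had 352.2 ± 34.6 CPM (SD, n = 6) against 91.6 ± 37.5 CPM (n = 11), with no overlap (log2 fold change 1.94 ± 0.24, edgeR adjusted p = 3.17e-06). Ly6e was higher by 1.73 ± 0.18 (edgeR adjusted p = 8.42e-07) and Lypd1, a LY6 gene of neurons, by 0.96 ± 0.19 (edgeR adjusted p = 0.000426). Ric3, a chaperone of alpha7 assembly, was lower at 76.4 ± 6.2 against 100.5 ± 9.2 CPM (-0.40 ± 0.07, edgeR adjusted p = 0.000136). Within lane 4, Ly6h (1.54), Ly6e (1.65) and Ric3 (-0.33) were called in the same directions and Lypd1 (0.61) was not. Tmem35a, the chaperone also called NACHO (-0.05 ± 0.06, edgeR adjusted p = 0.509), and Lynx1, a brake on nicotinic receptors (-0.07 ± 0.09, edgeR adjusted p = 0.547), did not pass the test.

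Of 11 genes of cholinergic neurons, which supply the ligand, 9 were tested, 1 was higher and 5 were lower. The vesicular acetylcholine transporter gene Slc18a3 had 2.18 to 6.94 CPM with the transgene and 2.44 to 81.5 CPM in control libraries (log2 fold change -2.50 ± 0.53, edgeR adjusted p = 0.000811). The choline transporter gene Slc5a7 was lower by -1.92 ± 0.52 (edgeR adjusted p = 0.0055). Isl1, a transcription factor gene of motor and striatal cholinergic neurons, was higher by 1.76 ± 0.50 (edgeR adjusted p = 0.00755). Within lane 4, 10 were tested, 4 were lower and 1 was higher, and Isl1 was not called (0.89 ± 0.63, edgeR adjusted p = 0.339). Chat, the gene of the enzyme that makes acetylcholine, was not called (-0.75 ± 0.45, edgeR adjusted p = 0.182), with 6.48 to 14.1 CPM with the transgene and 2.27 to 49.7 CPM in control libraries.

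Marker genes of the neurons that carry the rarer subunits moved in both directions. Of 10 habenula and interpeduncular genes, 4 were higher and 3 lower. The largest changes among them were Irx1 (-2.67 ± 0.45), Gpr151 (2.49 ± 0.43), Tac2 (1.85 ± 0.45) and Lrrc55 (1.79 ± 0.25). The summed level of this list was 91.3 to 147.6 CPM with the transgene and 82.6 to 122.2 CPM in control libraries, with transgene 5 highest. Nwd2 alone was a large part of the transgene sums, at 52.3 to 72.5 CPM, against 14.1 to 41.9 CPM in control libraries. Within lane 4, 2 of the 10 were higher and 2 lower, and Gpr151 was not called (2.37 ± 0.81, edgeR adjusted p = 0.052). Of 12 midbrain dopamine genes, 9 were tested, 1 was higher (Slc6a3, 2.87 ± 0.86) and 6 were lower, among them the midbrain and hindbrain regulators En2 (-4.43 ± 0.72), En1 (-3.86 ± 0.54) and Lmx1b (-2.97 ± 0.41). Their summed level was 64.9 to 194.1 CPM in transgene, highest in transgene 1, and 426.1 to 826.1 CPM in control libraries. Th stood at 1.16 to 9.24 CPM with the transgene and 5.85 to 17.8 CPM in control libraries, with overlapping ranges. Most of the control sums therefore came from genes other than Th and Slc6a3. The Slc6a3 value rests on transgene 1: the other 5 transgene libraries had 0.0527 to 2.54 CPM and the controls 0 to 2.80 CPM. Within lane 4, Slc6a3 was not called (3.14 ± 1.52, edgeR adjusted p = 0.158), and 0 dopamine genes were higher and 6 lower. Of 6 serotonin neuron genes, 5 were tested, 1 was higher (Slc22a3, 1.69 ± 0.28) and 2 were lower (Tph2, -4.47 ± 0.66, and Fev, -3.34 ± 0.66). In these lists the part of the markers in the subunit results was not tested.

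Other regional and cell-type lists also differed between the groups. All 16 Hox genes and all 7 cerebellar granule cell genes were lower, and all 12 telencephalic transcription factor genes and all 11 striatal projection neuron genes were higher in the transgene libraries. Of 7 Purkinje cell genes 5 were lower, of 7 astrocyte genes 5 were lower, of 9 oligodendrocyte genes 6 were lower and 1 higher, and of 4 tested microglia genes 2 were higher. Within lane 4 the counts were smaller for several lists: 1 of 7 Purkinje cell genes and 5 of 7 granule cell genes were lower, 10 of 11 striatal genes were higher, and 1 of 5 tested microglia genes was higher. All 11 tested Hox genes were lower and all 12 telencephalic genes higher there. Of 7 tested thalamus genes 2 were lower, and of 5 tested choroid plexus genes none was called. Of 6 general neuron and glia markers, 2 were higher and 2 lower.

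Across the 11 control libraries, the 36 pairs of subunit genes gave no Pearson correlation of log2 CPM that passed adjustment over the 36 (permutation test, 100000 resamples, two-sided), and 5 pairs had an unadjusted p under 0.05. The highest was Chrna4 with Chrna7, at r = 0.70 (permutation p = 0.0175, adjusted p = 0.301, Spearman rho = 0.65). Without control 7 and control 3, the libraries farthest from the median of Chrna4, r was 0.34, so the Pearson value rests in part on those libraries. Chrna5 with Chrna6 had r = 0.62 (permutation p = 0.0365, adjusted p = 0.301) and rho = 0.84 (permutation p = 0.00231, adjusted p = 0.0832), and r was 0.62 without the 2 farthest libraries. Chrna4 and Chrnb2, whose products share a receptor, had r = -0.62 (permutation p = 0.0418, adjusted p = 0.301) and rho = -0.53. The neighbours Chrna3 and Chrnb4 had r = 0.38 (permutation p = 0.247, adjusted p = 0.688). Over the 6 transgene libraries, as a description, Chrna4 with Chrnb2 had the opposite sign (r = 0.87). The other pairs named here had 0.16 (Chrna4 with Chrna7), 0.22 (Chrna5 with Chrna6) and 0.84 (Chrna3 with Chrnb4) there. Transgene 1 was the highest transgene library for both Chrna4 (69.7 CPM, next 44.4) and Chrnb2 (121.2 CPM, next 104.7). Transgene 5 was highest for both Chrna3 (3.94 CPM, next 1.805) and Chrnb4 (5.77 CPM, next 2.48). How far the r values over the transgene libraries rest on single libraries was not tested.

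The genes whose levels ran most alike with each subunit gene over the 11 controls were picked from 15571 genes by Pearson r of log2 CPM, and the values are a description. These 15571 genes had a mean log2 CPM of at least 0, a limit not set for the subunit genes. Chrna5 had 1 to 13 counts and Chrnb3 0 to 13 in a control library, so counting noise enters their values. Chrna4 ran with Timp2 (r = 0.97), a protease inhibitor gene, and Usp29 (0.96). Chrna7 ran with Gm26592 (0.97) and Snx5 (0.95), and Chrnb2 with Ebna1bp2 (0.97) and Pck2 (0.95). Over the 6 transgene libraries the same pairs gave 0.02 and 0.38 for Chrna4, -0.69 and 0.09 for Chrna7, and 0.24 and -0.63 for Chrnb2. For the rarer subunits, Chrna5 ran with Phf10 (0.94) and Dcun1d1 (0.94), and Chrnb4 with Dpp7 (0.91) and Lgr6 (0.91). Chrnb3 ran with Mapkap1 (0.89) and the assembled locus XLOC_016387 (0.88), and Chrna3 with Map3k7cl (0.92) and Gm42756 (0.89). Chrna2 ran with Bves (0.93) and 9430037G07Rik (0.93), and Chrna6 with Zfp174 (0.89) and Dnah5 (0.89). In the transgene libraries the r of these 12 pairs ran from -0.76 (Chrna6 with Zfp174) to 0.62 (Chrnb4 with Lgr6), so none of the likenesses in this paragraph was above 0.62 there. All pairs were picked for a high r over the controls, so a lower r in other libraries follows at least in part from that choice. Lane and the levels of regional marker genes also differed among the controls, and their part in these values was not tested.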

How the data were processed

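For each of the 17 libraries the authors deposited a list of raw read counts by transcript (68517 rows). The build is mm10, according to the submitters' processing notes. No aligner, counter, strand setting or annotation is given in the sources used here. Of the rows, 64505 carried Ensembl transcript names, 4007 assembled-locus names and 5 named no feature and entered neither library sizes nor tests. Reads on several features made up 40.2% to 43.4% of the total and reads on none 5.29% to 11.1%. Rows were matched by name to GENCODE M21 (64380 matched, 125 not) and summed to 41015 genes; unmatched rows stayed as features, 45147 in all.

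Genes were tested with edgeR 4.0.16 in R 4.3.3 (quasi-likelihood F test, TMM scaling, default expression filter), with Benjamini-Hochberg adjustment over all tested genes and a threshold of 0.05. Transgene and control were compared in the full set and within lane 4, and so were lanes 8 and 4 among controls. Standard errors were derived from the F statistic, and a prior count of 2 went into log2 CPM. DESeq2 1.42.0, limma-voom 3.58.1, other scalings and filters, the row with the most counts, a lane and flow cell factor and left-out libraries were tried as alternatives. No 2 libraries of a group agreed within counting noise (chi-square per gene at least 8.76 over 55 control pairs and 11.9 over 15 transgene pairs).

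Under the naming rule the text gives all 9 subunit genes, up to 4 called genes with the largest changes per other receptor, ligand or neuron list (others named there are examples given for contrast), regional lists by counts and summed levels, and the genes most alike. The listed neighbours named were those of the Chrna5 cluster, Adar and called ones within 250 kilobases; 3 listed genes lay farther away and are not used. A few genes that the rule would name are not reported here. The members and lists were chosen with earlier results of these data known. The group labels were not checked against the level of HAR1A, which was not analysed here.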

Additional observations from a re-analysis of the deposited data

Results flagged for a closer look

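In the 6 transgene libraries, 5 subunit genes had a highest library that stood apart from the rest by Dixon's gap on the CPM scale. Transgene 1 was highest for Chrna4 (69.7 CPM, next 44.4), Chrna6 (6.26 CPM, next 1.69) and Chrnb2 (121.2 CPM, next 104.7). Transgene 5 was highest for Chrna3 (3.94 CPM, next 1.80) and Chrnb4 (5.77 CPM, next 2.48). Over the 18 sets tested (each gene in the transgene group and among the 6 controls of lane 8), chance alone flags about 1 in 20, and on the log2 scale the gap of all 5 was below the critical value.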

How the results depend on the processing

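Of 591 alternative values, 22 fold changes changed sign, 11 gained a call and 5 lost one. Over all libraries, the number of subunit genes lower (1) was 0 in the fit with a lane and flow cell term, 4 with transgene 1 and transgene 5 left out together (chosen after seeing the data) and 0 to 3 when 1 library was left out, being 0 without transgene 2 (Chrnb2 adjusted p = 0.0566) and 3 without transgene 5. The number higher (3) was 2 in the fit with a lane and flow cell term (Chrna7 lost), 4 with DESeq2, limma-voom, the row with the most counts, or control 7 and transgene 3 left out, and 3 to 4 when 1 library was left out. Within lane 4 the number higher (2) was 1 with limma-voom (Chrnb3 adjusted p = 0.0559) and 1 to 2 when 1 library was left out, and the number lower (0) was 1 with transgene 1 and transgene 5 left out. Pairs of subunit genes called among controls numbered 0 to 1 when 1 library was left out. Chrna4 was called higher over all libraries with DESeq2 (0.46, adjusted p = 0.0430), limma-voom (0.45, 0.0493), the row with the most counts (0.47, 0.0441), and without control 7, transgene 4 or transgene 6. Chrna6 changed sign over all libraries with limma-voom (-0.32) and with transgene 1 and transgene 5 left out (-1.34), and within lane 4 with the same alternatives (-0.40 and -1.32). Within lane 4, Chrna4 changed sign with DESeq2 (0.0015), limma-voom (0.0067), no filter (0.0197) and control 7 and transgene 3 left out (0.32), and Chrna2 with library size only (-0.0092). Leaving out 1 library changed the sign of Chrna6 over all libraries (-0.76 to 0.61), of Chrna2 (-0.22 to 0.26), Chrna4 (-0.19 to 0.32), Chrna6 (-0.75 to 0.76) and Chrnb4 (-1.005 to 0.0198, the latter without control 11) within lane 4, and of Chrnb4 among controls (-0.53 to 0.45). The cause of these changes was not tested. No paired analysis was possible because the labels give no replicate numbers. Chrna5 and Chrnb3 rest on few reads, and the depth limits the precision of the 6 genes below 4 CPM most.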
